A study of Mus musculus with 2 samples.

Results

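The mouse microRNA (miRNA) genes linked to oligodendrocytes, Mir219a-1, Mir219a-2, Mir338, Mir138-1 and Mir138-2, were followed in the newborn hindbrain. They were chosen by name and make up 5 of the 1973 miRNA genes in the count tables. The data are miRNA sequencing of total RNA, size-selected below 30 nucleotides, from single hindbrains of 2 pups of strain B6NCrl at postnatal day 0. Pup 1 gave replicate 1 and pup 3 gave replicate 2. The labels record no treatment, transgene or sex, and give both pups the same donor identifier. Both libraries form 1 group, so the series holds no older age or other tissue to set these levels against. Each table held whole-number read counts, and the depth in reads on the strand of the gene was 4906127 for pup 1 and 6238680 for pup 3. Levels are in CPM, the reads of a gene on its own strand per 1000000 such reads over all genes of that library.

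Oligodendrocytes wrap axons in myelin, and in the brain myelination starts early in the hindbrain, around birth in the mouse. When an oligodendrocyte progenitor leaves the cell cycle it switches on miR-219 and miR-338, which repress mRNAs that hold cells in the progenitor state, such as those of the receptor Pdgfra and the transcription factors Sox6 and Hes5. The miRNA miR-138 also rises in differentiating oligodendrocytes and is in addition a neuronal miRNA that limits the size of dendritic spines. A miRNA gene gives a hairpin precursor, from which a 5p and a 3p arm are cut, and the seed, bases 2 to 8 of an arm, is the main part that pairs with target mRNAs.

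The arms below are shown because they decide which reads the tables could assign to a gene. Sequences are from RefSeq on GRCm38.p6, in which all 5 members were matched, and capitals mark the seed.
miR-219a-5p of Mir219a-1 and Mir219a-2: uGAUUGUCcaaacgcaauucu
miR-219a-1-3p of Mir219a-1: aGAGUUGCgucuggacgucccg
miR-338-3p of Mir338: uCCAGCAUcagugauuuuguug
miR-338-5p of Mir338: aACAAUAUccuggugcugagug
miR-138-5p of Mir138-1 and Mir138-2: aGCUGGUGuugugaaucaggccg
miR-138-1-3p of Mir138-1: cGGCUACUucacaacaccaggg
miR-138-2-3p of Mir138-2: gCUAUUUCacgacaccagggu
Mir219a-2 also gives miR-219a-2-3p. Of the 1738 mature arms in the RefSeq table, none with another name had the seed of any of the arms printed here (0 other names for each). The members therefore form 3 seed groups through miR-219a-5p, miR-338-3p and miR-138-5p. The 3p arms of the miR-138 copies overlapped over 20 bases in their best ungapped placement and differed at 2 of them.

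The miR-219a and miR-138 genes come in pairs of copies, and each pair shares its 5p arm whole. The tables give reads that matched several genomic places in a row of their own. How they were handled is not stated in the sources used here, but that row implies that they are in no gene's count, and a read lying within a shared stretch would then be counted for neither copy. The hairpins of the pairs follow, with the stretch shared around the 5p arm in capitals.
Mir219a-1 hairpin: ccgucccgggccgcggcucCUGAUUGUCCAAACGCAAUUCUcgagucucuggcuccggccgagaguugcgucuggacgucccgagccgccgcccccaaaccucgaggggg
Mir219a-2 hairpin: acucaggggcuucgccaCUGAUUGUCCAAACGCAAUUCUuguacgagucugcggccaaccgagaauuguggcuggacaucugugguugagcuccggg
Mir138-1 hairpin: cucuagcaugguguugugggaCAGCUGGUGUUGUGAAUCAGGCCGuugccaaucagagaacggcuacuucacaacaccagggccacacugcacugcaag
Mir138-2 hairpin: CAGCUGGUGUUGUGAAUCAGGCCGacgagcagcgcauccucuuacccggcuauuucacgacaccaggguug
The shared stretch was 22 bases in the miR-219a pair, against 21 bases of miR-219a-5p, and ended with the arm. In the miR-138 pair it was 24 bases, against 23 of miR-138-5p, and also ended with the arm. It starts at the first base of the annotated Mir138-2 hairpin, so bases before it were not compared. On that reading the counts of these 4 genes rest on 3p arms, on 5p reads that run past the shared stretch, and on other reads unique to a copy. They would then not measure the whole amount of miR-219a-5p or miR-138-5p. Mir338 has no such copy, and both of its arms lie in 1 annotated hairpin each. Reads at several places were 37.9% of the reads in the pup 1 table and 39.4% in the pup 3 table, and how many of them belong to miR-219a-5p or miR-138-5p is not given in the tables.

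The members lie on 5 chromosomes (GRCm38, the assembly of mm10, annotated with GENCODE M21). Mir219a-1 (ENSMUSG00000065555.1) is at chr17:34024983-34025092 on the minus strand, 303 bases from Ring1, which encodes a Polycomb protein, and partly over an exon of the noncoding gene Gm26940. Mir219a-2 (ENSMUSG00000065485.1) is at chr2:29845631-29845727 on the minus strand, with no annotated gene on that strand and with Urm1 629 bases away on the other. Mir338 (ENSMUSG00000065600.1) is at chr11:120014765-120014862 on the minus strand, in an intron of Aatk, which encodes a neural kinase. Mir138-1 (ENSMUSG00000065414.1) is at chr9:122682876-122682974, plus strand, and overlaps an exon of the pseudogene Gm47135. Mir138-2 (ENSMUSG00000065512.2 in the tables) is at chr8:94324311-94324381, plus strand, and overlaps an exon of the noncoding gene C78859. The hairpin of Mir219a-1 stood out by composition, with 69.1% G and C, above 96.7% of the 1005 hairpins of the table. The other members had between 54.5% and 57.7%, also above the median of 51.7% for all hairpins. Predicted folding energy was -0.53 kcal/mol per base for Mir219a-1 and -0.50 for Mir219a-2, with 10.3% and 16.8% of hairpins more stable. It was -0.46 for Mir138-1, -0.43 for Mir338 and -0.41 for Mir138-2, against a median of -0.41.

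All 5 members were detected, at 2 CPM or more in both pups, as were 407 of the 1973 genes (20.6%). Together they took 0.404% ± 0.162 of own-strand counts (SD, n = 2 pups), 0.519% in pup 1 and 0.289% in pup 3. That gap was almost wholly in the miR-138 genes. The miR-219a genes and Mir338 summed to 1776 CPM in pup 1 and to 1649 in pup 3, while the miR-138 genes summed to 3410 and 1242 CPM. As a part of the members' counts, the miR-138 genes went from 65.8% in pup 1 to 42.9% in pup 3. In whole-tissue RNA, fewer cells of a type and less RNA per cell cannot be told apart.

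**Figure D1:**
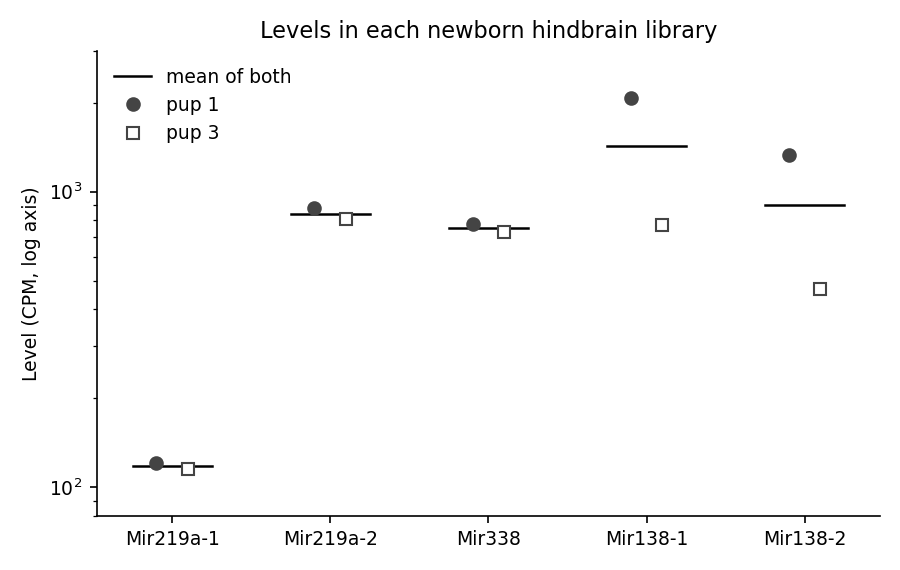
Level of each member gene in CPM on a log axis, with a filled circle for pup 1, an open square for pup 3 and a bar at the mean of both. The points of Mir219a-1, Mir219a-2 and Mir338 nearly coincide, whereas Mir138-1 and Mir138-2 are at 2078 and 1332 CPM in pup 1 and at 772 and 469 CPM in pup 3.

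Mir219a-2 was the more abundant of the miR-219a copies in uniquely assigned reads. It had 4311 counts or 879 CPM in pup 1 and 5025 counts or 805 CPM in pup 3, a mean of 842 ± 51.8 CPM (SD, n = 2 pups). Both pups were thus close together, and the gene ranked 116 by level in pup 1 and 111 in pup 3. After scaling by TMM, its log2 difference (pup 3 minus pup 1, with 1 CPM added) was 0.01 with a counting error (SE) of 0.03 and a 95% interval of -0.05 to 0.07. An exact binomial test of the counts did not separate the libraries (Benjamini-Hochberg adjusted p = 0.781).

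Mir219a-1, the copy on chromosome 17, was far lower. It had 593 counts or 121 CPM in pup 1 and 718 counts or 115 CPM in pup 3, a mean of 118 ± 4.09 CPM (n = 2 pups). Its log2 difference was 0.07 (SE 0.08, 95% interval -0.09 to 0.22, exact binomial test adjusted p = 0.540). Of the counts of both copies, Mir219a-2 had 87.9% in pup 1 (exact Clopper-Pearson 95% interval 87.0 to 88.8) and 87.5% in pup 3 (86.6 to 88.3). The intervals overlapped, but a difference in the split between the pups was not tested. Such intervals cover counting error only, since reads of a library are not all independent molecules.

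Mir338, whose 3p arm is the one reported in oligodendrocytes, had 3808 counts or 776 CPM in pup 1 and 4546 counts or 729 CPM in pup 3. Its mean was 752 ± 33.6 CPM (n = 2 pups), with the pups close to each other. The log2 difference was 0.05 (SE 0.03, 95% interval -0.01 to 0.11, exact binomial test adjusted p = 0.227). Against Mir219a-2, the count of Mir338 made up 46.9% of both in pup 1 (95% interval 45.8 to 48.0) and 47.5% in pup 3 (46.5 to 48.5), so this pair of unlinked genes kept nearly the same proportion. Its hairpin is given with miR-338-3p in capitals, as the one member sequence in which every arm is unique to the gene.
Mir338 hairpin: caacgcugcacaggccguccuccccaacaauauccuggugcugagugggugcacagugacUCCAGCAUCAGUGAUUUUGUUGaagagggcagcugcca

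By the exact binomial test on TMM sizes, 0 of these 3 genes passed an adjusted p of 0.05 at any fold, where 47.6% of the 508 genes tested did, and 0 of 3 had an unadjusted p under 0.05. On library totals, and likewise with DESeq2 size factors, 2 of the 3 passed (Mir219a-2 and Mir338), with differences far under 2-fold. Their differences were also small beside other genes. Among the 407 detected genes the median absolute log2 difference was 0.27, and 3.44%, 8.11% and 14.0% of those genes differed by no more than Mir219a-2, Mir338 and Mir219a-1. The sign depended on the scaling: library totals gave -0.13, -0.09 and -0.07 for the same 3 genes and DESeq2 size factors gave 0.10, 0.14 and 0.16. Moving from library totals to TMM shifts every gene by 0.14 on the log2 scale.

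The miR-138 genes differed between the libraries. Mir138-1 had 10197 counts or 2078 CPM in pup 1 and 4819 counts or 772 CPM in pup 3, a mean of 1425 ± 923 CPM (n = 2 pups). Mir138-2 had 6535 counts or 1332 CPM in pup 1 and 2927 counts or 469 CPM in pup 3, a mean of 901 ± 610 CPM (n = 2 pups). Pup 1 was the higher for both copies, although its library was the smaller one.

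After TMM scaling, Mir138-1 was 2.44-fold lower in pup 3, a log2 difference of -1.29 (SE 0.03, 95% interval -1.34 to -1.24). Mir138-2 was 2.58-fold lower, a log2 difference of -1.37 (SE 0.03, 95% interval -1.43 to -1.30). In the exact binomial test over all 508 genes, the adjusted p had a −log10 of 614 for Mir138-1 and of 431 for Mir138-2. Both met the call of an adjusted p under 0.05 and a fold of at least 2. By that call 2 of the 5 members differed, both lower in pup 3, where 6.69% of tested genes were called in either direction, 5.71% lower and 0.984% higher. Its p-values compare 1 library with the other and cover counting error alone, so they do not say how far pups of this age vary. Of the detected genes, 96.8% differed in size by no more than Mir138-1 and 97.5% by no more than Mir138-2.

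**Figure D2:**
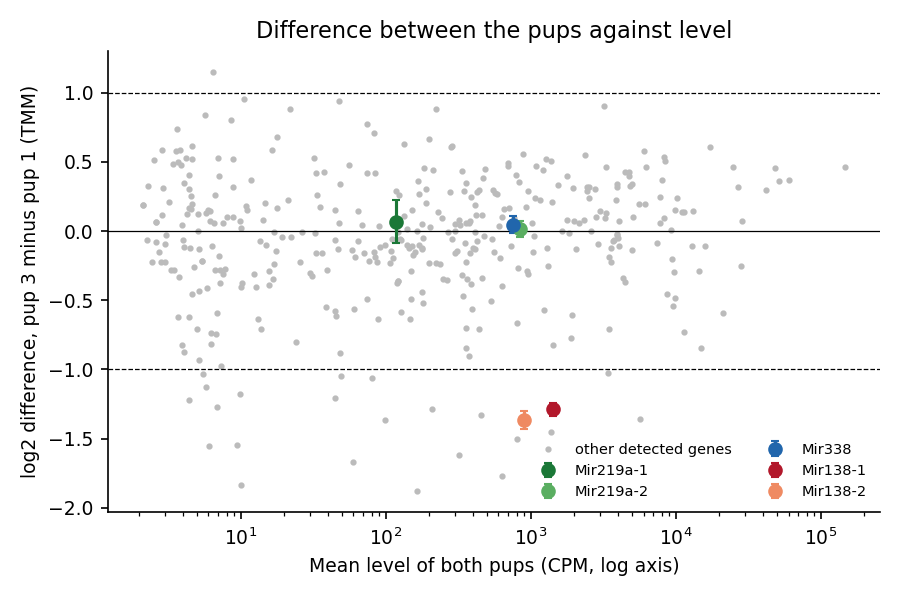
Log2 difference between the pups (pup 3 minus pup 1, TMM scaling) against the mean level in CPM on a log axis, for the 407 detected genes. Members are in colour with 95% counting intervals, and the dashed lines mark a 2-fold difference. Mir219a-1, Mir219a-2 and Mir338 lie within 0.07 of 0, while Mir138-1 at -1.29 and Mir138-2 at -1.37 lie below the lower line.

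The miR-138 copies kept nearly the same proportion while both were lower. Mir138-1 made up 60.9% of the counts of both copies in pup 1 (exact Clopper-Pearson 95% interval 60.2 to 61.7) and 62.2% in pup 3 (61.1 to 63.3). The intervals overlapped, but a difference in this split was not tested. The copies lie on chromosomes 9 and 8, so they are not parts of 1 transcript.

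**Figure D3:**
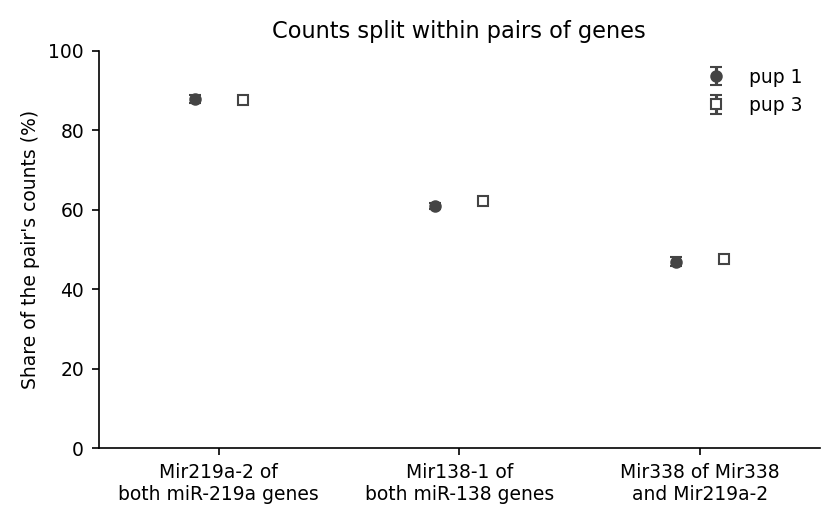
Share in percent of the first gene in the counts of a pair, for pup 1 (filled circles) and pup 3 (open squares), with exact 95% binomial intervals. Mir219a-2 holds 87.9% and 87.5% of the miR-219a counts, Mir138-1 holds 60.9% and 62.2% of the miR-138 counts, and Mir338 holds 46.9% and 47.5% of its sum with Mir219a-2.

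The order of the members differed between the pups. Set per 100 precursor bases, pup 1 gave Mir138-1 at 2099 CPM, Mir138-2 at 1876, Mir219a-2 at 906, Mir338 at 792 and Mir219a-1 at 110. In pup 3, Mir219a-2 led at 830 CPM per 100 bases, before Mir138-1 at 780, Mir338 at 744, Mir138-2 at 661 and Mir219a-1 at 105. The ranges of the upper 4 genes overlapped, except that Mir338, from 744 to 792, stayed below Mir219a-2, from 830 to 906. Mir219a-1 was the lowest in both pups. The reads come from RNA below 30 nucleotides, so they need not scale with precursor length, and the division changes the ratios between genes. Within each pup, the order in CPM without the division was the same as the order with it. Ligation and amplification favour some small RNAs over others, and reads of the shared 5p arms may be left out for 4 of the members, so this order is one of assigned reads.

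Because 4 members share a mature arm with a copy, the same comparison was read for the genes in which this could be seen. Of the 1973 genes, 858 were matched to arms of the RefSeq table. Among those, 83 had a mature arm that a second gene also has, and 51 of the 83 were tested. Of these, 11 (21.6%) were called lower in pup 3 and 0 higher by the exact binomial test, with a median log2 difference of -0.14. At an unadjusted p under 0.05 and any fold, 26 were lower and 3 higher, against 93 lower and 105 higher of the 382 tested genes whose arms are their own, and 139 lower and 124 higher of all 508. Without the 4 members, 9 of 47 (19.1%) were called lower and the median was again -0.14. Among the 382 genes with arms of their own, 13 (3.40%) were called lower and 4 higher, around a median of 0.00. The other 1115 genes had no arm in the RefSeq table, so whether they share one is not known. In that class 75 were tested, 5 were called lower and 1 higher. Over all tested genes 29 of 508 were lower, with a median of -0.02. Reads at several places were higher in pup 3 as a share of all reads (37.9% in pup 1, 39.4% in pup 3) and lower per own-strand gene count (0.938 and 0.904), so their direction depends on the denominator. Their part in the difference of the miR-138 genes was not tested.

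Of 22 pairs of tested genes that share an arm held by exactly 2 genes, both genes were called lower in 4 pairs, 1 gene in 4 pairs and neither in 14. The miR-138 pair was among the 4 with both called, beside Mir103-1 with Mir103-2, Mir181b-1 with Mir181b-2 and Mirlet7a-1 with Mirlet7c-2. The last pair shares only a 3p arm. Mirlet7c-2 was also paired with Mirlet7c-1 through let-7c-5p, where Mirlet7c-1 was not called (log2 difference -0.71), so the pairs are not all separate genes. The miR-219a pair was among the 14, as were the pairs of neuronal miR-128 and miR-129. Mir128-1 had a log2 difference of -0.12 and Mir128-2 one of 0.00, while Mir129-1 had 0.00 and Mir129-2 -0.07.

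**Figure D4:**
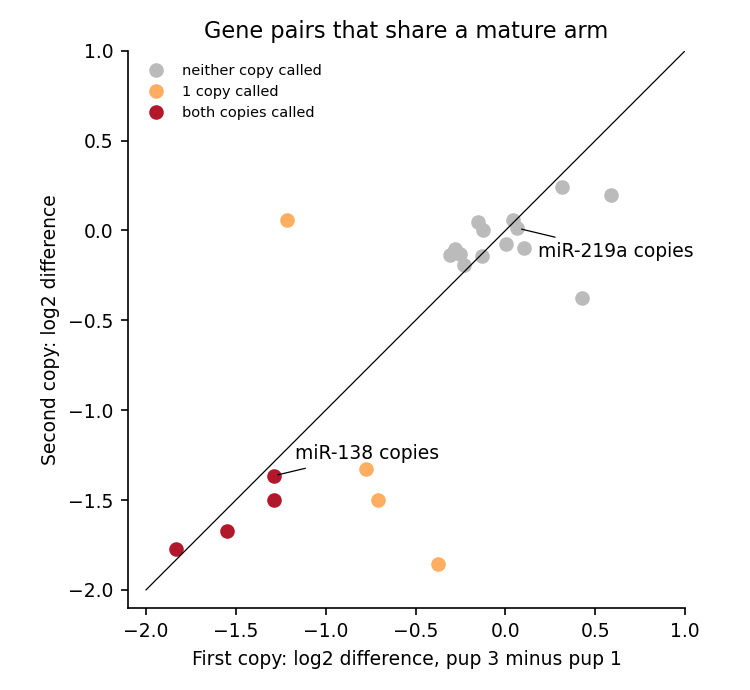
Log2 difference between the pups (pup 3 minus pup 1, TMM scaling) of 1 gene against the other for the 22 pairs that share a mature arm, coloured by how many genes of the pair were called. The line marks equal differences; the miR-138 copies lie near it at -1.29 and -1.37, and the miR-219a copies near 0 at 0.07 and 0.01.

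Reads on the strand opposite to a member were few. Opposite-strand counts were 0 in both pups for Mir138-1 and Mir138-2, 2 and 0 for Mir219a-2, and 1 and 2 for Mir338. They were 6 of 599 for Mir219a-1 in pup 1, or 1.00% (exact 95% interval 0.368 to 2.17), and 11 of 729 in pup 3, or 1.51% (0.756 to 2.68). Annotated miRNA genes lie on the opposite strand of 3 members: Mir219c over Mir219a-1, Mir219b over Mir219a-2 and Mir3065 over Mir338. None of these has an entry of its own, so the opposite-strand column is where reads of them would be counted. The arm miR-219c-3p overlaps miR-219a-5p over 20 bases, miR-219b-3p over 21 bases, and miR-3065-5p overlaps miR-338-3p over 21 bases. Over all genes, opposite-strand counts were 3.02% of gene counts in pup 1 and 3.39% in pup 3. Taken gene by gene, the median share among the 407 detected genes was 0% in both pups, so the pooled share is not that of a typical gene.

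For each member the 3 detected genes nearest to it were found from the log2(CPM + 1) values of both pups, a likeness over 2 libraries only. Next to Mir219a-2 came Mir129-1 at 871 and 794 CPM in pups 1 and 3, then Mir183 at 894 and 823 CPM and Mir15b at 773 and 752 CPM. Mir15b was also the nearest to Mir338, before Mir383 at 757 and 704 CPM and Mir330 at 796 and 671 CPM. Mir574, Mir345 and Mir301b lay next to Mir219a-1, between 103 and 134 CPM. Nearest to Mir138-1 was Mir182, of the sensory miR-183 cluster, at 2066 and 687 CPM, followed by Mir425 and Mir423. The log2 difference of Mir182 was -1.45, against 0.02 for Mir183 of the same cluster. Nearest to Mir138-2 was Mirlet7c-2 at 1215 and 390 CPM, followed by Mir351 and Mir676. The neighbours of the miR-138 genes were less close, at distances from 0.17 to 0.78 on the log2 scale, against 0.02 to 0.21 for those of the other 3 members.

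Other miRNA genes linked to the oligodendrocyte lineage, a list of 19 symbols, had no member past the 2-fold call. All 19 had an entry, 18 were detected, and of the 18 tested 0 were called by the exact binomial test. The median log2 difference was -0.14. Of the 19, 6 share a mature arm with a second gene, so reads of those arms may be left out. Over all tested genes 6.69% were called. At any fold, 10 of the 18 were lower and 3 higher in pup 3 by adjusted p, where 47.6% of all tested genes passed and 23.8% were lower. By an unadjusted p under 0.05, 16 of the 18 passed, where 139 of all 508 tested genes were lower and 124 higher. Mir125a had the highest level, 14667 and 8046 CPM in pups 1 and 3. Mir17, the lead gene of a cluster that promotes progenitor proliferation, had 11119 and 8243 CPM. Mir204 had 10550 and 8349 CPM, and Mir23a, whose miRNA represses lamin B1 in oligodendrocytes, 8078 and 6897 CPM. Mir32, named after its value was seen, had 168 and 281 CPM. Its log2 difference of 0.88 was positive and short of a 2-fold call.

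Markers of the tissue and of other cells it could hold were read in the same way. Levels and sums here are CPM on library totals, whereas calls and log2 differences follow TMM. Moving to TMM shifts every gene by 0.14 on the log2 scale, so the direction of a small difference in CPM depends on the scaling. No sum was tested. The Hox-linked genes Mir10a and Mir10b, which mark hindbrain and cord, had 32189 and 19915 CPM in pup 1 and 24602 and 10051 CPM in pup 3, and 5 of 6 such genes were detected. Of 11 neuronal and progenitor symbols 10 had an entry, and 7 of these genes were detected. The 10 genes summed to 22397 CPM in pup 1 and 20787 in pup 3. Of the 10, 6 share a mature arm with a second gene, so reads of those arms may be left out. All 10 were tested, and 2 were called lower in pup 3, where 5.71% of all tested genes were. These were Mir124a-1 and Mir124a-3, named after their values were seen. Mir124a-1 had 73 and 25 counts in pups 1 and 3 (14.9 and 4.01 CPM), and Mir124a-3 only 17 and 4 (3.47 and 0.641 CPM). Mir124a-2 went the other way, with 8 and 11 counts, and was not called. No arm of these genes was in the RefSeq table, so reads left out through a shared arm could not be judged. Sums in pup 1 and pup 3 were 47819 and 55787 CPM for the endothelial Mir126a, 7503 and 9689 CPM for 2 smooth muscle genes, and 19022 and 17194 CPM for 4 choroid plexus and multiciliated cell genes. Genes within a sum did not all go the same way. Of the smooth muscle genes, Mir143 had 7121 and 9362 CPM and Mir145a 382 and 326 CPM. After TMM scaling Mir145a had a log2 difference of only -0.09 (exact binomial test adjusted p = 0.106). Of the choroid plexus and multiciliated cell genes, Mir449a had 4043 and 4936 CPM. The others were lower in pup 3 in CPM, with Mir204 at 10550 and 8349 CPM. Among these others, Mir34c had a log2 difference of only -0.03 after TMM scaling (exact binomial test adjusted p = 0.058). Mir204 and Mir145a are also in the oligodendrocyte-lineage list above. The sum was 498 and 308 CPM for 3 erythroid genes, of which Mir451a had 461 and 258 CPM, Mir144 16.1 and 27.7 CPM and Mir486 20.6 and 22.0 CPM. Sums were 842 and 597 CPM for leukocytes, where 3 of 4 symbols had an entry. For skeletal muscle they were 172 and 157 CPM, where only Mir206 of 4 genes was above 0. After TMM scaling its log2 difference was 0.00. The 3 muscle genes at 0 had no arm in the RefSeq table, so reads left out through a shared arm could not be judged. Levels were 44.6 and 45.2 CPM for the liver gene Mir122, and 6 epithelial genes summed to 169 and 201 CPM. The part of cell makeup in the miR-138 difference was not tested.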

How the data were processed

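MicroRNA-seq of 2 newborn hindbrains was read from tables that the authors deposited, 1 per library, as unnormalized whole-number counts per miRNA gene. The assembly was mm10 and the annotation GENCODE M4, as stated in text files beside the tables. For the aligner and counter, the name is not given in the sources used here. The tables hold reads on either strand, a gene's own strand and the opposite strand. Own-strand counts were used, 40.5% and 43.6% of the 12126529 and 14316243 reads in the tables of pups 1 and 3. Rows that name no gene stayed out: in pup 1, 17.7% of reads were unmapped, 37.9% matched several places and 2.66% lay in no feature, and in pup 3 13.9%, 39.4% and 1.59%. At 3 counts, the limit that a count of 0 allows is 0.611 CPM in the pup 1 library and 0.481 in the other.

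Gene IDs were matched without version to GENCODE M21 (1894 of 1973), and arms and hairpins came from RefSeq tables on GRCm38.p6. Positions of Mir138-2 are those of M21, whose version of the gene is later than in the tables. Shared arms were found by identical mature sequence, among the 858 genes matched to an arm. Folding energy is from ViennaRNA RNAfold 2.7.2. Libraries were scaled with TMM in edgeR 4.0.16 (effective sizes 1.16, pup 3 over pup 1). Each gene with 10 or more counts in sum was tested with a two-sided exact binomial test, and p-values were Benjamini-Hochberg adjusted over 508 genes. Genes were called where the adjusted p was under 0.05 and log2(CPM + 1) differed by at least 2-fold. edgeR's quasi-likelihood test was not run, as 1 group has no contrast. The calling step was tested on simulated data with known changes and counting error alone. That simulation does not show how the call behaves with variation between animals. Alternatives were library totals, DESeq2 1.42.0 size factors, other denominators, pseudocounts, count filters and folds, and counts on either strand.

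Named genes are the members, the miRNA genes opposite them, their host genes, the 3 nearest genes in level per member, and up to 4 genes of highest level per list. Outside this rule, Mir32, Mir124a-1, Mir124a-2, Mir124a-3 and the gene pairs that share an arm were named after their values were seen, and Ring1 and Urm1 for their position. The members, lists and tests were chosen with earlier results of these data known.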

Additional observations from a re-analysis of the deposited data

Results flagged for a closer look

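Mir219a-1 had opposite-strand counts above the 3 that a count of 0 allows, 6 in pup 1 and 11 in pup 3, in a column that the comparisons of levels do not use. Mir219c is annotated there and has no entry of its own.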

How the results depend on the processing

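Mir138-1 and Mir138-2 stayed called and lower in pup 3 under library totals, DESeq2 size factors, all reads as the denominator, both other pseudocounts and counts on either strand, with log2 differences from -1.43 to -1.20 and from -1.50 to -1.27. Mir219a-1, Mir219a-2 and Mir338 were called under none of these, and 2 of the 5 members were called at every count filter and fold tried. All 5 members were also detected at 1 and at 10 CPM. The summed share of the members was 0.168% with all reads in the table as the denominator, and 0.289% to 0.519% with either replicate left out. The count of called genes, 34, was 18 among genes with 100 or more counts, 74 at a fold of at least 1.5 and 242 with no minimum fold, since these settings test fewer genes or ask for less. No paired analysis was possible because the libraries form 1 group. The difference between libraries could not be computed with either replicate left out. With 2 libraries, no spread between animals can be set against a difference between them.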

Other observations

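The 3 other pairs whose genes were both called lower in pup 3 were read gene by gene, after their values were seen. Mir181b-2 had 1008 CPM in pup 1 against 267 in pup 3, and Mir181b-1 16.5 and 3.53 CPM. Mirlet7c-2 had 1215 and 390 CPM, and Mirlet7a-1, with which it shares a 3p arm, 307 and 113 CPM. Mir103-2 had 92.7 and 25.8 CPM, and Mir103-1 9.78 and 2.40 CPM. Among pairs in which neither copy was called, Mir125b-1 and Mir125b-2 were higher in pup 3, with log2 differences of 0.31 and 0.24.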
